A study of Mus musculus with 36 samples.

Results

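Collagens are the triple-helical proteins of the extracellular matrix, and this account follows their genes through the development and adult life of the mouse heart. The members are the genes whose symbol on the array reads Col, a number, the letter a and a number. The rule matched 43 of 20701 gene IDs. Of these, Col4a3bp encodes a ceramide transfer protein and was set apart, which left 42 collagen genes carried by 82 probe sets. Each gene was read from the probe set with the highest mean over all arrays; 15 of the genes have 1 probe set and 27 have several. By structure, 11 genes are fibrillar, 6 belong to the type IV network of basement membranes, 9 are fibril-associated (FACIT) and 16 are of other kinds (types VI, VII, VIII and X, the transmembrane collagens and the multiplexins, with Col26a1). Within every class values differ between genes partly because their probes differ, so levels were compared between stages and never between genes.

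Whole hearts of OF1 mice were collected daily between E10.5 and E19.5, from young adults of 10 weeks and from old adults, for which the series text gives 14 months and the study's methods a younger age. Each of the 12 stages has 3 arrays, 36 in all, and this number limits the precision of every stage mean. At E10.5 and E11.5 the 3 arrays hold mixed sexes, while each later stage has 1 array labelled female, 1 male and 1 mixed. According to the methods, 3 pups at each time point served as biological replicates. The methods also describe mixed replicates as holding both male and female hearts, and do not state how many animals each of them pooled. No gene was altered and no treatment was given. Values are log2 intensities, so that a difference of 1 is a 2-fold change.

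Some labels and arrays have to be kept in mind. The extraction text of the labels names liver although the tissue is given as heart: 0 of 6 liver marker genes had a stage mean above 5 at any stage, and all 5 heart muscle markers did at every stage. The titles begin with another prefix as of the E16.5 female array, which is not stated to be a batch and coincides with the late stages. At E12.5 the Y-linked gene Eif2s3y read 6.19 on the female, 6.72 on the male and 6.41 on the mixed array, against 1.89 to 2.75 on the 9 female arrays from E13.5 on, and 6.55 to 8.37 on the 9 male ones, so the female label of E12.5 is not borne out and the male array is not set apart from it. Arrays of 1 stage correlated at 0.969 to 0.9964 over all probe sets. The hybridization controls, which are added to every sample, lay lowest at E10.5 (9.68, 9.68 and 10.35) and highest in young adult hearts (12.03 to 12.43). The difference between the 3-prime and 5-prime probe sets of the Gapdh and actin controls, a measure of RNA integrity, was 2.28 to 3.76 at E10.5 and 2.15 to 2.82 in adult hearts, against 3.96 to 4.03 at E19.5. In bulk tissue, moreover, fewer cells of a type cannot be told apart from less RNA per cell.

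A collagen molecule is a trimer of chains, either of the same gene or of several genes, so that a heterotrimer such as type I (2 chains from Col1a1 and 1 from Col1a2) needs its partners to be made in the same cell. Fibrillar collagens form the tension-bearing fibres laid down by fibroblasts, type IV forms the sheet of the basement membrane around muscle cells and capillaries, FACIT collagens decorate the surface of fibrils, and type VI forms beaded filaments between fibrils and cells. In the heart, collagens shape the endocardial cushions that become valves and later the fibrous network that holds the muscle.

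The promoter stretches of 4 collagen genes with contrasting time courses are shown because their values carry the results below: Col1a2 and Col6a3 were higher late in gestation than at its start, Col13a1 was lower, and Col8a1 was higher in adult hearts. They are the 250 bases before the gene start in the RefSeq annotation of GRCm38.p6, in the direction of transcription. The array files name no build, and the sequences were matched by gene. Capitals mark CCAAT or TATAAA, which were searched on both strands.
Col1a2: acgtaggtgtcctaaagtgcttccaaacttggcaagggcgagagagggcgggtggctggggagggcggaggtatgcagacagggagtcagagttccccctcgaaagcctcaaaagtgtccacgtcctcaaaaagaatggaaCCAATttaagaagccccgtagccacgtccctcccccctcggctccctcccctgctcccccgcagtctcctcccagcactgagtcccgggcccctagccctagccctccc
Col6a3: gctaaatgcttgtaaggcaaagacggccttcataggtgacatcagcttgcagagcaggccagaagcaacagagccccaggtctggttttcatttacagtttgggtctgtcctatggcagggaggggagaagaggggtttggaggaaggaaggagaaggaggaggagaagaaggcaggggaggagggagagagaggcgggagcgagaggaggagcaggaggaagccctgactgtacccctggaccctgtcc
Col8a1: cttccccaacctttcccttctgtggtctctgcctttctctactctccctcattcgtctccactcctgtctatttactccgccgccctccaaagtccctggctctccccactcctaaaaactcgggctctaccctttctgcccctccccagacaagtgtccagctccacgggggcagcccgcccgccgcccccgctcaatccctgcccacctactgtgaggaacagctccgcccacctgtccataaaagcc
Col13a1: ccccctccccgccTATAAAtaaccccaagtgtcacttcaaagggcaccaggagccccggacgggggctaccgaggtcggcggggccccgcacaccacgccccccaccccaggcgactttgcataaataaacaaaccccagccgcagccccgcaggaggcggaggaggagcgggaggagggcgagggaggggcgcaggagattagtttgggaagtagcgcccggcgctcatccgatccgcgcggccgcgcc

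The stretch of Col1a2 (chr6:4505368-4505617, plus strand) holds CCAAT beginning 109 bases before the start. That of Col13a1 (chr10:61979109-61979358, minus strand) holds TATAAA 237 bases before it. Those of Col6a3 (chr1:90843972-90844221, minus strand) and Col8a1 (chr16:57754738-57754987, minus strand) hold neither word. A promoter entry was found for 33 of the 42 genes. CCAAT occurred in 13 of the 33 (39.4%) against 37.5% of 27025 genes, and TATAAA in 5 (15.2%) against 14.3%, so neither word was more common in collagen promoters than elsewhere by more than 2 percentage points.

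Of the 42 genes, 27 exceeded a mean of 5 at 1 or more stages, the level the study used as its expression limit, and 15 did not. Among the 27, the difference between the highest and the lowest stage mean ran from 0.87 to 5.7 on the log2 scale, with a median of 2.43. Among the 15 it ran from 0.3 to 1.61 with a median of 0.61. The 15 are Col5a3, Col11a2 and Col24a1 of the fibrillar class, Col4a3 and Col4a6, the FACIT genes Col9a2, Col19a1 and Col22a1, and Col6a4, Col6a5, Col7a1, Col8a2, Col10a1, Col17a1 and Col26a1. Their differences are given below as counts, and a low probe set may miss a change. The stages of the highest mean were spread: of the 27, 12 peaked from E10.5 to E14.5, 9 from E15.5 to E19.5 and 6 in adult hearts.

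**Figure D1:**
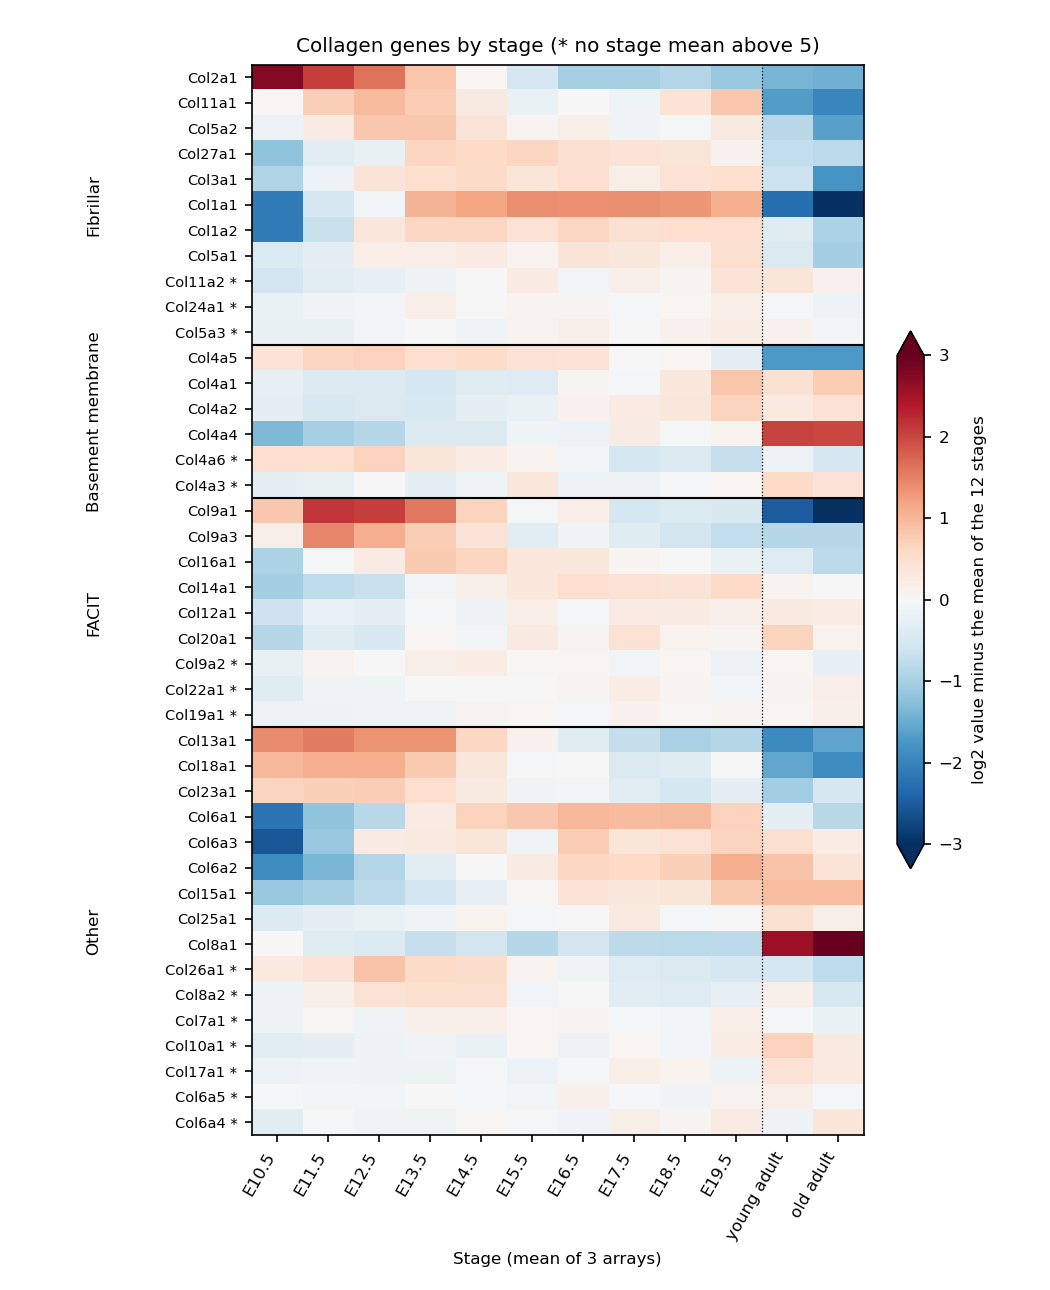
Stage mean of each collagen gene minus its mean over the 12 stages, on the log2 scale, in rows grouped by class with 1 column a stage. An asterisk marks the 15 genes with no stage mean above 5, whose rows vary less. Col1a1 and Col1a2 are above their own mean from E13.5 to E19.5, Col2a1, Col9a1, Col13a1 and Col18a1 are highest early, and Col8a1 and Col4a4 are highest in both adult stages.

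From E10.5 to E19.5, both type I genes and 3 of the 5 type VI genes were called higher, and Col2a1 and Col13a1 fell. Col1a1, Col1a2, Col6a1, Col6a2 and Col6a3 were each at least 4-fold higher at E19.5. Called here means an adjusted p under 1e-05, a log2 difference above 2 in size (more than 4-fold) and some stage mean over 5, the limits of the study. By these limits 5 of 42 collagen genes were higher, where 1% of all genes were, and 2 of 42 were lower, where 1.52% of all genes were. Differences and adjusted p values come from limma with all 36 arrays in 1 model and all probe sets adjusted together.

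Type I collagen is the main fibre of tendon, skin and the fibrous skeleton of the heart. Its first chain, Col1a1, read 6.51, 6.66 and 7.39 at E10.5 and 10.04, 9.79 and 10.24 at E19.5, a log2 difference of 3.17 (SE 0.206, adjusted p = 1.8e-13, 8.99-fold). The second chain, Col1a2, read 8.64, 8.9 and 8.83 and then 11.53, 11.48 and 11.12, a difference of 2.58 (SE 0.216, adjusted p = 5.7e-11, 6-fold). For both genes all E19.5 arrays lay above all E10.5 arrays. The stage mean of Col1a1 was 8.45 at E11.5, 9.97 at E13.5 and 10.36 at E15.5 and E17.5, so most of the increase lay before E13.5.

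Type VI collagen is assembled from Col6a1, Col6a2 and Col6a3 and links cells to the surrounding fibrils. Col6a1 read 5.81, 5.92 and 6.61 at E10.5 and 9.14, 9.05 and 8.89 at E19.5, a difference of 2.91 (SE 0.192, adjusted p = 2.3e-13). Col6a2 read 6.69, 6.39 and 6.61 and then 9.79, 9.9 and 8.88, a difference of 2.96 (SE 0.219, adjusted p = 3.5e-12). Col6a3 read 4.37, 4.55 and 4.42 and then 8.04, 8.23 and 6.83, a difference of 3.26 (SE 0.337, adjusted p = 4.3e-09). The other type VI genes, Col6a4 (difference 0.55, adjusted p = 0.029, overlapping arrays) and Col6a5 (0.14, adjusted p = 0.34), stayed under the expression limit. None of the 3 called genes had overlapping arrays, and the mixed array of E19.5 was the lowest of its stage for each called gene. By E12.5 the stage mean of Col6a3 had gone from 4.45 to 7.28, while that of Col6a2 had gone from 6.56 to 7.56 and reached 9.52 at E19.5.

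Col2a1, the fibrillar collagen of cartilage that is also expressed in endocardial cushions, read 7.48, 7.79 and 7.54 at E10.5 and 3.6, 3.84 and 3.68 at E19.5. It fell by 3.90 on the log2 scale (SE 0.211, adjusted p = 2.5e-15, 14.9-fold). Its stage means fell in order from 7.61 to 3.85 between E10.5 and E16.5. Of 6 cartilage markers, 0 had a mean above 5 at E10.5, where Matn1 was at 2.00 and Acan at 4.06. The summed intensity of 6 valve and cushion markers was 4590 to 5170 at E10.5 and 977 to 1270 at E19.5, and its part in the fall of Col2a1 was not tested. Col13a1, a transmembrane collagen of cell junctions, read 6.98, 7.04 and 6.92 and then 4.58, 4.72 and 4.83. It fell by 2.27 (SE 0.148, adjusted p = 1.8e-13, 4.83-fold). The fall was 1.93, under the fold limit, with each array centred on the median of probe sets whose mean over all arrays exceeded 5. The mean of Col13a1 was still 6.92 at E13.5, so its fall lay later than that of Col2a1.

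At an adjusted p under 0.05 without a fold limit, 24 of 42 collagen genes (57.1%) were higher at E19.5, against 26.2% of all genes. At the same limit 9 (21.4%) were lower, against 23.6%, a share near the background. By class, 9 of 11 fibrillar, 3 of 6 type IV, 4 of 9 FACIT and 8 of 16 other genes were higher. The median log2 difference was 0.93 over the fibrillar class, 0.44 over all 42 and 0.16 over all genes. Centring each array on the median of probe sets with a mean above 5 raises all differences of this comparison by 0.34. Then 29 collagen genes are higher and 8 lower, against 11557 higher and 3349 lower among all genes. As deposited, 5418 genes were higher and 4895 lower.

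Among the other fibrillar genes, Col3a1, the fine fibre of vessels and valves, read 10.91, 10.96 and 11.02 at E10.5 and 12.5, 12.37 and 12.24 at E19.5 (difference 1.41, SE 0.235, adjusted p = 1.5e-05). Col27a1, a fibrillar collagen first known from cartilage, read 6.41, 6.11 and 6.94 and then 7.74, 7.56 and 8.22 (difference 1.35, adjusted p = 5e-05). Both passed 0.05 without reaching the 4-fold limit, and their arrays did not overlap. A second Col3a1 probe set differed by 0.67 (adjusted p = 0.12). Type V chains start and limit the width of type I fibrils. Col5a1 read 8.82, 8.85 and 8.74 and then 10.07, 9.95 and 9.18, a rise of 0.93 (adjusted p = 0.00092). Col5a2 read 9.17, 9.35 and 9.22 and then 9.88, 9.89 and 9.27 (difference 0.43, adjusted p = 0.17), and its arrays overlapped. Col11a1, a partner of type V and type II chains, read 4.83, 5.28 and 4.14 and then 5.52, 5.48 and 5.46, a difference of 0.74 (adjusted p = 0.0069). Its course was not a steady one, with means of 5.63 at E12.5, 4.49 at E15.5 and again 5.49 at E19.5.

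Type IV genes moved in different directions. Col4a1 and Col4a2 make the basement membrane chains found in nearly every tissue. Col4a1 read 9.31, 9.56 and 9.07 at E10.5 and 10.64, 10.65 and 9.91 at E19.5, a rise of 1.09 (SE 0.238, adjusted p = 0.00045). Col4a2 read 8.09, 8.34 and 7.79 and then 9.11, 9.25 and 8.63, a rise of 0.92 (SE 0.256, adjusted p = 0.0042). Both were near their E10.5 means until E15.5 (9.18 and 8.13) and above them from E16.5 on (9.64 and 8.47 at E16.5). Col4a4, a chain of the network best known from kidney and inner ear, read 4.53, 4.15 and 3.76 and then 5.65, 5.4 and 5.76, a rise of 1.46 (SE 0.287, adjusted p = 0.00013). Its partner Col4a5 read 9.16, 8.97 and 9.13 and then 8.76, 8.33 and 8.18 (difference -0.67, adjusted p = 0.053), with no overlap between arrays. Col4a6, which stayed under 5 at every stage, fell by 1.19 (adjusted p = 2e-05).

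Of the remaining classes, the multiplexins Col15a1 and Col18a1, which sit in basement membrane zones, moved in opposite directions. Col15a1 read 4.63, 4.66 and 4.81 at E10.5 and 6.72, 6.78 and 6.29 at E19.5, a rise of 1.90 (SE 0.164, adjusted p = 1.1e-10) that was just short of 4-fold. Col18a1, the source of endostatin, read 8.62, 8.89 and 8.67 and then 7.95, 7.97 and 7.26, and fell by 1.00 (SE 0.196, adjusted p = 0.00013). Neither gene had overlapping arrays. In the FACIT class Col14a1 rose by 1.60 (adjusted p = 2.2e-05), Col20a1 by 0.93 (adjusted p = 0.00011), the probe set used for Col12a1 by 0.78 (adjusted p = 0.00078) and Col16a1 by 0.74 (adjusted p = 3.6e-05). Col9a1 and Col9a3, chains of the type IX collagen that coats type II fibrils, fell by 1.26 (adjusted p = 0.0013) and 0.92 (adjusted p = 0.00064). Of the transmembrane genes, Col23a1 fell by 0.97 (adjusted p = 0.0013) and Col25a1 rose by 0.43 (adjusted p = 0.037).

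Over the same days the summed intensity of 10 fibroblast markers was 1890 to 2220 at E10.5, with 5 of the 10 above 5, and 6250 to 7400 at E19.5, with 9 of 10 above 5. Pdgfra (9.0 to 8.08) and Tcf21 (7.28 to 6.73) fell, and the other genes of the list rose, led by Dpt (2.31 to 9.97). The summed intensity of 8 endothelial markers was 788 to 1070 and 1090 to 1740, and that of 7 smooth muscle and pericyte markers 7150 to 8000 and 6810 to 8670. Acta2 (12.67 and 12.27) dominates the latter sum, which hides opposite moves. Rgs5 (5.58 to 9.79), Myh11 (3.2 to 6.49) and Pdgfrb (8.07 to 10.38) rose, Tagln (8.68 to 6.33) and Cnn1 (7.81 to 4.95) fell, and Cspg4 was level (7.41 and 7.43). Macrophage markers (7 genes) summed to 91.5 to 118 and 389 to 410, and erythroid markers (6 genes) to 18900 to 25100 at E10.5 and 87.5 to 106 at E19.5. The part of these shifts in the collagen values was not tested. With the hybridization control level as a term in the model, 7 collagen genes were called higher and 2 lower. With the 3-prime to 5-prime difference as a term, 5 were higher and 2 lower, the same counts as without it.

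**Figure D2:**
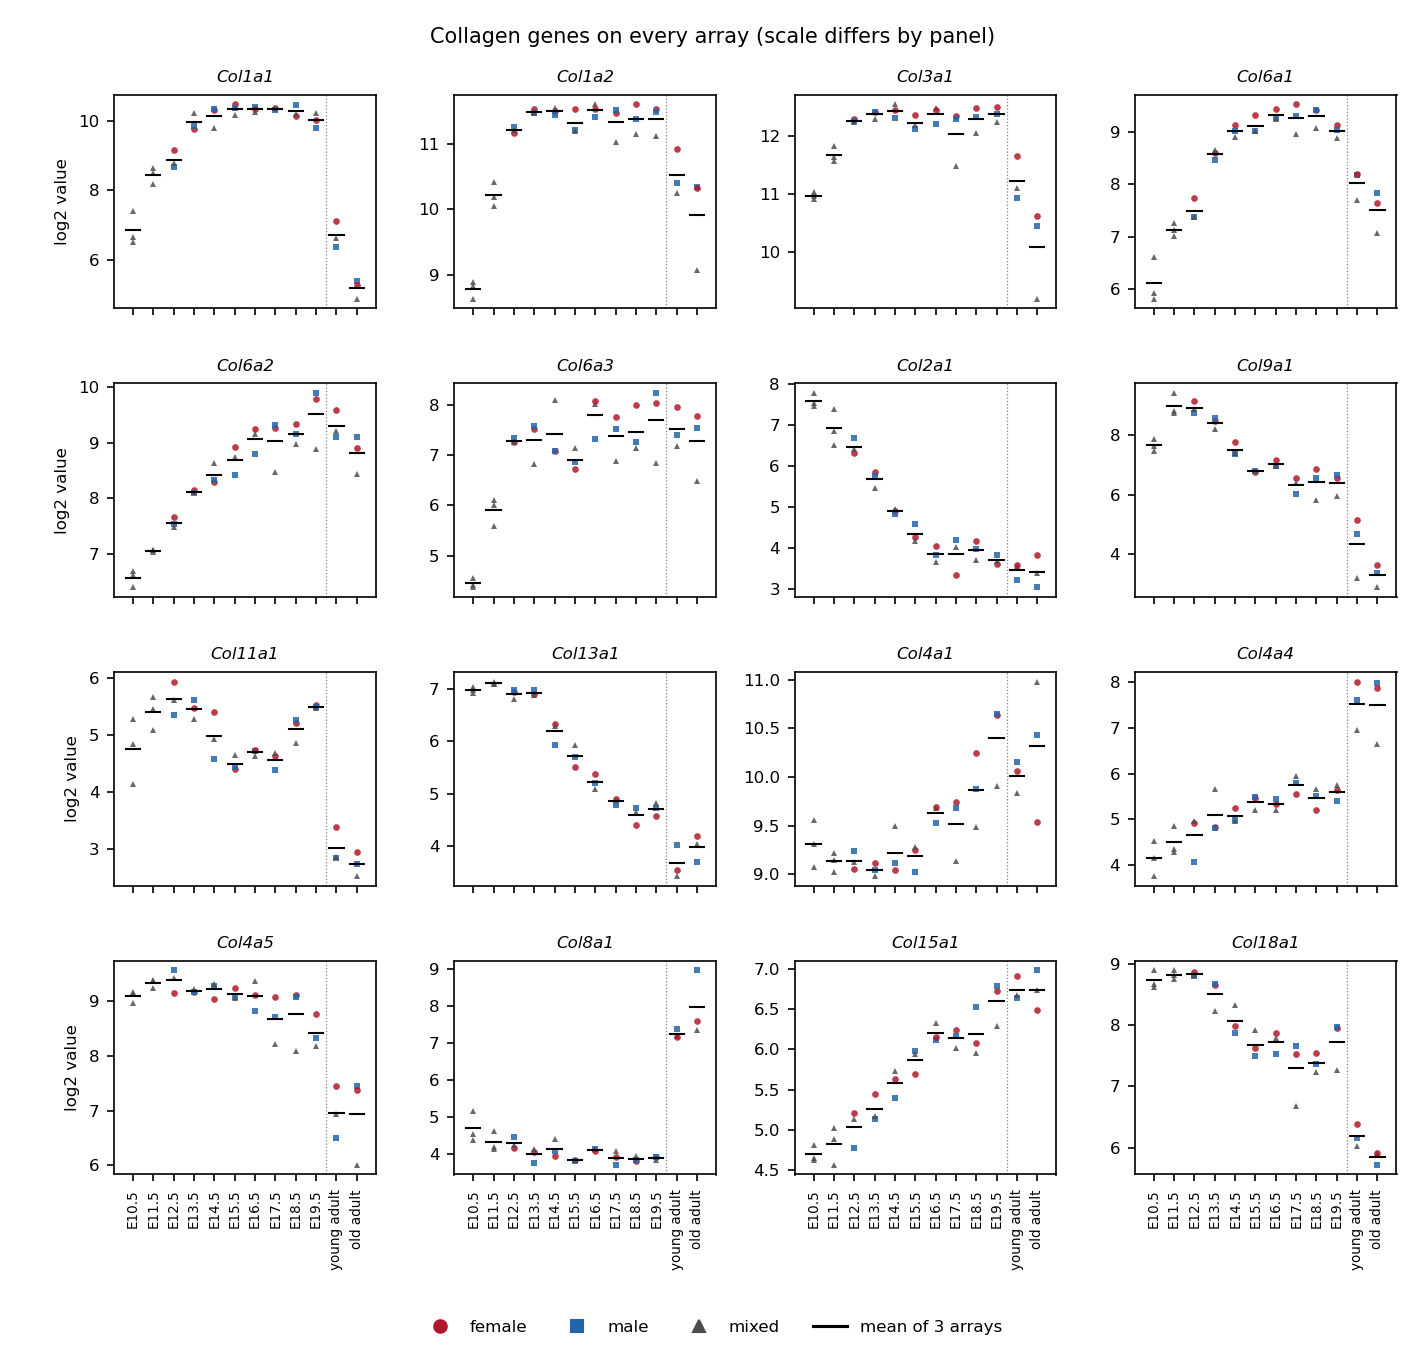
Log2 value of 16 collagen genes on each of the 36 arrays, by stage, with circles for female, squares for male and triangles for mixed arrays and a bar at the mean of 3 (scales differ between panels). Col1a1 runs from 6.86 at E10.5 to 10.36 at E15.5 and down to 5.17 in old adult hearts, Col2a1 declines from 7.61 to 3.85 by E16.5, and Col8a1 lies between 3.7 and 5.15 on every embryonic array and above 7 on every adult one.

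The daily steps place these changes in time. From E10.5 to E11.5, 8 of 42 collagen genes were higher at an adjusted p under 0.05, where 1.21% of all genes were, and 0 were lower, where 1.45% of all genes were. The 8 belong to types I, VI, IX, XVI and XXVII. Col1a1 read 8.18, 8.66 and 8.49 at E11.5 and had risen by 1.59 (SE 0.206, adjusted p = 3.2e-05, 3.01-fold), and Col1a2 read 10.05, 10.41 and 10.18 and had risen by 1.42 (adjusted p = 0.00027). Col6a3 read 5.58, 6.01 and 6.11, a rise of 1.45 (adjusted p = 0.017), and Col6a1 rose by 1.02 (adjusted p = 0.0032). Col9a1 read 7.64, 7.47 and 7.87 at E10.5 and 8.76, 9.43 and 8.82 at E11.5, a rise of 1.34 (adjusted p = 0.015). Its partner Col9a3 rose by 1.29 (adjusted p = 0.00059), so that these type IX genes went up for a day before they went down. Col16a1 rose by 0.91 (adjusted p = 0.00016) and Col27a1 by 0.90 (adjusted p = 0.045). In each of the 8 genes all E11.5 arrays were above all E10.5 arrays. The 8 were picked by a test on these same arrays, and the share over all genes was not computed, so this adds no support. The count was 4 without the first or the second E10.5 array, 5 without the second E11.5 array, and 4 with the 3-prime to 5-prime difference in the model.

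From E12.5 to E13.5, Col1a1 rose by 1.09 (adjusted p = 0.0078), Col6a1 by 1.08 (adjusted p = 0.0042) and Col16a1 by 0.53 (adjusted p = 0.038), 3 of 42 genes where 0.667% of all genes were higher. From E13.5 to E14.5 Col13a1 fell by 0.73 (adjusted p = 0.042), the 1 collagen gene that was lower in that step, where 0.0338% of all genes were lower. That call was lost in 15 of 36 fits that left out 1 array. The other 6 steps held 0 collagen calls in either direction by limma at this limit. Among all genes, 0.594% were lower in the E13.5 step and 0.029% higher in the E14.5 step. The share higher was 0.0821% at E12.5, 0.0193% at E15.5, 0% at E16.5 and E18.5, 0.0145% at E17.5 and 0.57% at E19.5. The share lower was 0.0435%, 0.029%, 0.00483%, 0%, 0.00483% and 1.15% at E12.5, E15.5, E16.5, E18.5, E17.5 and E19.5. By the study limits no step had a collagen call, and from 0% to 0.0145% of all genes were called in a step and direction, 0.00483% being 1 gene and 0.00966% 2 genes.

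Against E19.5, 9 of 42 collagen genes were called by the study limits at 1 or more of the 9 earlier stages, where 2.79% of all genes were, 5 of them higher at E19.5, where 1.08% of all genes were, and 4 lower, where 1.71% of all genes were. These add Col9a1 and Col9a3, whose highest means were at E11.5 (9.0 and 6.64), to the 7 genes called at E10.5. Against young adult hearts, 13 of 42 were called at 1 or more of 11 stages, where 10% of all genes were, 5 higher in the young adult (background 3.5%) and 8 lower (background 6.54%).

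From E19.5 to the young adult heart, 7 of 11 fibrillar genes fell at an adjusted p under 0.05 and Col8a1 rose. Col1a1 was 10.0-fold lower, Col11a1 5.52-fold and Col9a1 4.17-fold, while Col8a1 was 10.2-fold higher. Types VI and XV, and the main type IV chains, did not pass the test in either direction except for Col6a1. By the study limits 1 of 42 collagen genes was higher, where 0.787% of all genes were, and 3 of 42 were lower, where 1.02% were.

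Col8a1, a short-chain collagen that forms hexagonal networks under endothelium, read 3.92, 3.91 and 3.83 at E19.5 and 7.36, 7.18 and 7.17 in the young adult, a difference of 3.35 (SE 0.239, adjusted p = 1.7e-12). All 30 embryonic arrays lay between 3.7 and 5.15, and all 6 adult arrays lay above them. Its partner in type VIII, Col8a2, read 3.65, 3.56 and 4.07 and then 4.38, 4.0 and 4.11, under the expression limit throughout. A second Col8a1 probe set rose by 2.59 and was called too.

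Col1a1 read 10.04, 9.79 and 10.24 at E19.5 and 6.36, 6.63 and 7.1 in the young adult, and fell by 3.33 (SE 0.206, adjusted p = 6.6e-14). That returned it to its E10.5 range: the young adult minus E10.5 difference was -0.16 (adjusted p = 0.51). The sign of this difference turned with centring on the median of probe sets with a mean above 5 (0.37) or renewed quantile normalization (0.33). A second Col1a1 probe set was 0.60 above E10.5 (adjusted p = 0.017). Col1a2 followed in direction, and which chain fell more depended on the probe set (second probe sets gave -1.16 for Col1a1 and -1.94 for Col1a2). It read 10.4, 10.25 and 10.92 in the young adult, fell by 0.86 (adjusted p = 0.0028) and stayed 1.73 above E10.5. Col11a1 read 2.83, 2.85 and 3.38 and fell by 2.46 (SE 0.218, adjusted p = 2e-10), with no overlap. Col3a1 read 10.92, 11.09 and 11.65 and fell by 1.15 (SE 0.235, adjusted p = 3e-04).

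Of the type V chains, Col5a1 and Col5a2 fell, and Col5a3, under the expression limit, differed by -0.11 (adjusted p = 0.62). Col5a1 read 8.54, 8.59 and 9.26 and fell by 0.93 (adjusted p = 0.0013), although the female young adult array overlapped the mixed E19.5 array. Col5a2 read 8.53, 8.17 and 9.07 and fell by 1.09 (adjusted p = 0.0015). Col27a1 read 7.29, 6.9 and 6.68 and fell by 0.88 (adjusted p = 0.0065). The fibrillar genes that did not pass were Col2a1 (-0.26), Col24a1 (-0.24), Col5a3 (-0.11) and Col11a2 (-0.02). The class median was -0.88, against 0.05 over all genes, and all 11 differences were at or under -0.02, where 54.6% of all genes were above 0. With each array centred on the median of probe sets with a mean above 5, which raises differences by 0.18, Col11a2 and Col5a3 turned positive. Over the whole family 13 of 42 genes (31%) were lower, against 17% of all genes, and 7 (16.7%) were higher, against 14.7%, a share near the background. After that centring the family had 9 higher and 12 lower genes, and all genes 4822 higher and 2492 lower, where the deposited values gave 3045 and 3514.

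Col9a1 read 6.56, 6.68 and 5.97 at E19.5 and 4.69, 3.2 and 5.14 in the young adult, and fell by 2.06 (SE 0.304, adjusted p = 3.2e-06). The young adult arrays were far apart, and the fall was 1.98, 1.92 and 1.49, under the 4-fold limit, without the female or male E19.5 array or the mixed young adult array. A second Col9a1 probe set differed by -0.02 (adjusted p = 0.97). Col18a1 read 6.15, 6.02 and 6.38 and fell by 1.54 (SE 0.196, adjusted p = 2.4e-07), and Col13a1 read 4.03, 3.43 and 3.55 and fell by 1.04 (adjusted p = 1.6e-06). Both continued their embryonic decline.

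Within type IV, Col4a4 and Col4a5 moved in opposite directions on the probe sets used, while a second Col4a5 probe set differed by 0.06 (adjusted p = 0.89). Col4a4 read 7.6, 6.95 and 8.01 in the young adult and rose by 1.91 (SE 0.287, adjusted p = 4e-06), while Col4a5 read 6.49, 6.94 and 7.45 and fell by 1.46 (SE 0.281, adjusted p = 0.00015). The arrays did not overlap for either gene. Col4a3 read 4.08, 3.34 and 3.86, under the expression limit, with a difference of 0.51 (adjusted p = 0.026) and overlapping arrays. Col4a1 read 10.15, 9.83 and 10.06 and Col4a2 8.64, 8.47 and 8.78. Their differences of -0.39 and -0.36 did not pass (adjusted p = 0.24 and 0.31), and their arrays overlapped those of E19.5.

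In type VI, Col6a1 read 8.19, 7.7 and 8.21 and fell by 0.99 (SE 0.192, adjusted p = 0.00015). Col6a2 read 9.1, 9.21 and 9.59 (difference -0.23, adjusted p = 0.48) and Col6a3 7.39, 7.18 and 7.96 (difference -0.19, adjusted p = 0.72). Both kept most of what they had gained, at 2.74 and 3.06 above E10.5. The sign of the Col6a3 difference from E19.5 turned without the male E19.5 array (0.07) and with the hybridization controls in the model (0.69). Col15a1 read 6.64, 6.67 and 6.91 (difference 0.14, adjusted p = 0.56). Fibroblast markers summed to 9590 to 13600 in the young adult, above the 6250 to 7400 of E19.5, with 10 of 10 above 5. Of the 10, 7 were higher than at E19.5, led by Lum (6.79 to 10.17) and Dcn (10.59 to 12.57), and Postn (11.8 to 10.01), Tcf21 (6.73 to 5.91) and Pdgfra (8.08 to 8.01) were lower. The part of these shifts in the collagen values was not tested.

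**Figure D3:**
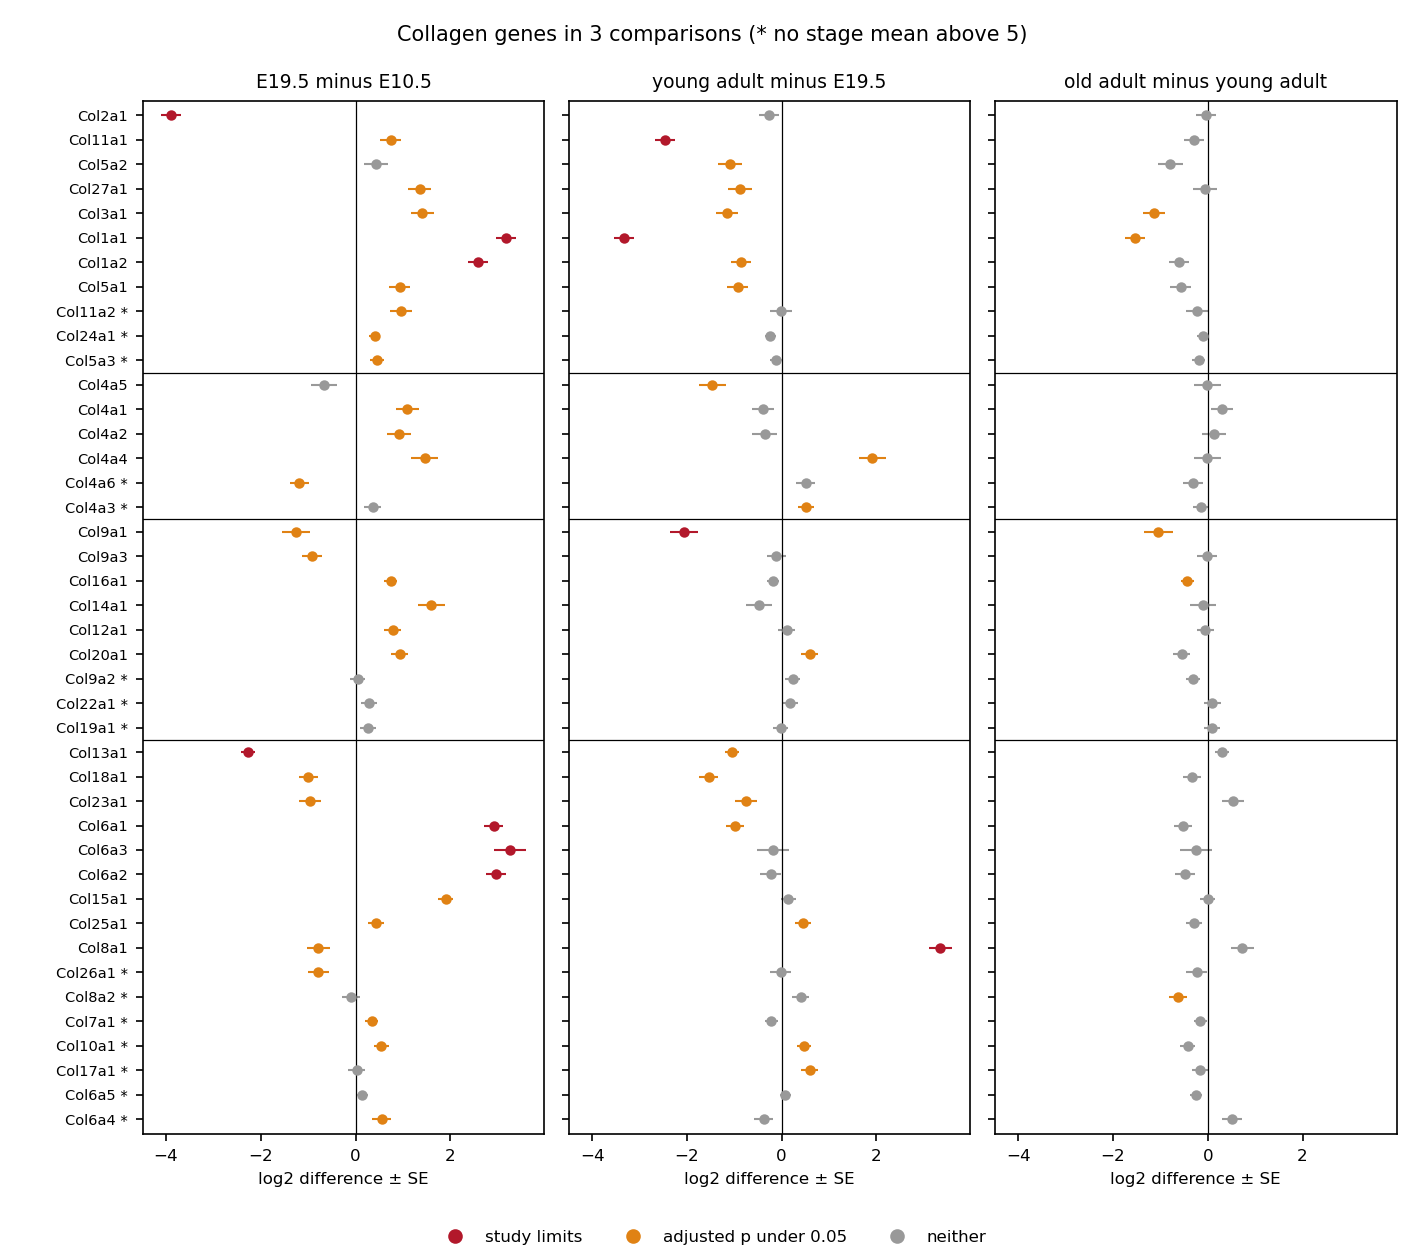
Log2 difference of each collagen gene (point, with SE) for E19.5 minus E10.5, young adult minus E19.5 and old adult minus young adult, with genes grouped by class. Red points pass the study limits, orange points only an adjusted p under 0.05 and grey points neither. The red points are 7, 4 and 0 in the 3 panels, and in the right panel all 5 orange points lie left of zero.

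Over the whole span, from E10.5 to the young adult, 5 of 42 collagen genes were called higher, where 2.64% of all genes were, and 5 lower, where 5.14% were. The higher genes were Col4a4 (3.37, 10.4-fold), Col6a3 (3.06), Col6a2 (2.74), Col8a1 (2.55) and Col15a1 (2.04). The lower genes were Col2a1 (-4.16, 17.8-fold), Col9a1 (-3.32), Col13a1 (-3.31), Col18a1 (-2.54) and Col4a5 (-2.13). Col15a1 was at 1.96 without the female young adult array, and Col4a5 at -1.89 without the male one. With the probe sets of a gene averaged, Col4a5 (-1.85) and Col9a1 (-1.9) were under the 4-fold limit. So was Col4a5 after quantile normalization (-1.63) and after centring on the median of probe sets with a mean above 5 (-1.6). With the hybridization controls in the model the difference of Col4a5 was -0.52 (adjusted p = 0.46), and those of Col4a4 (2.71), Col9a1 (-2.88) and Col18a1 (-1.48) kept their direction but lost the call. At an adjusted p under 0.05, 19 genes were higher and 11 lower, where 38.6% and 28.5% of all genes were. The difference of Col3a1 was 0.26 (adjusted p = 0.34), and that of a second probe set -0.86 (adjusted p = 0.038).

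Chains that share a trimer did not always move in parallel. Over the 12 stage means, Pearson r was 0.95 for Col4a1 with Col4a2, 0.89 for Col9a1 with Col9a3, 0.82 for Col1a1 with Col1a2, and 0.79 to 0.85 among the type VI genes. These are descriptions over 12 means of the same hearts. Over the 10 embryonic means alone, r was 0.94 for Col1a1 with Col1a2 and 0.98 for Col9a1 with Col9a3. In type I the embryonic courses ran together. For the young adult minus E19.5 step, the order of the 2 chains depended on the probe set: -3.33 for Col1a1 and -0.86 for Col1a2 on the ones used, but -1.16 and -1.94 on second probe sets. For Col5a1 with Col5a2 r was 0.78 over 12 means and 0.25 over the embryonic ones. For Col8a1 with Col8a2 r was -0.23, for Col11a1 with Col11a2 -0.4 and for Col9a1 with Col9a2 0.48, and in each of these pairs the second gene had no stage mean above 5.

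**Figure D4:**
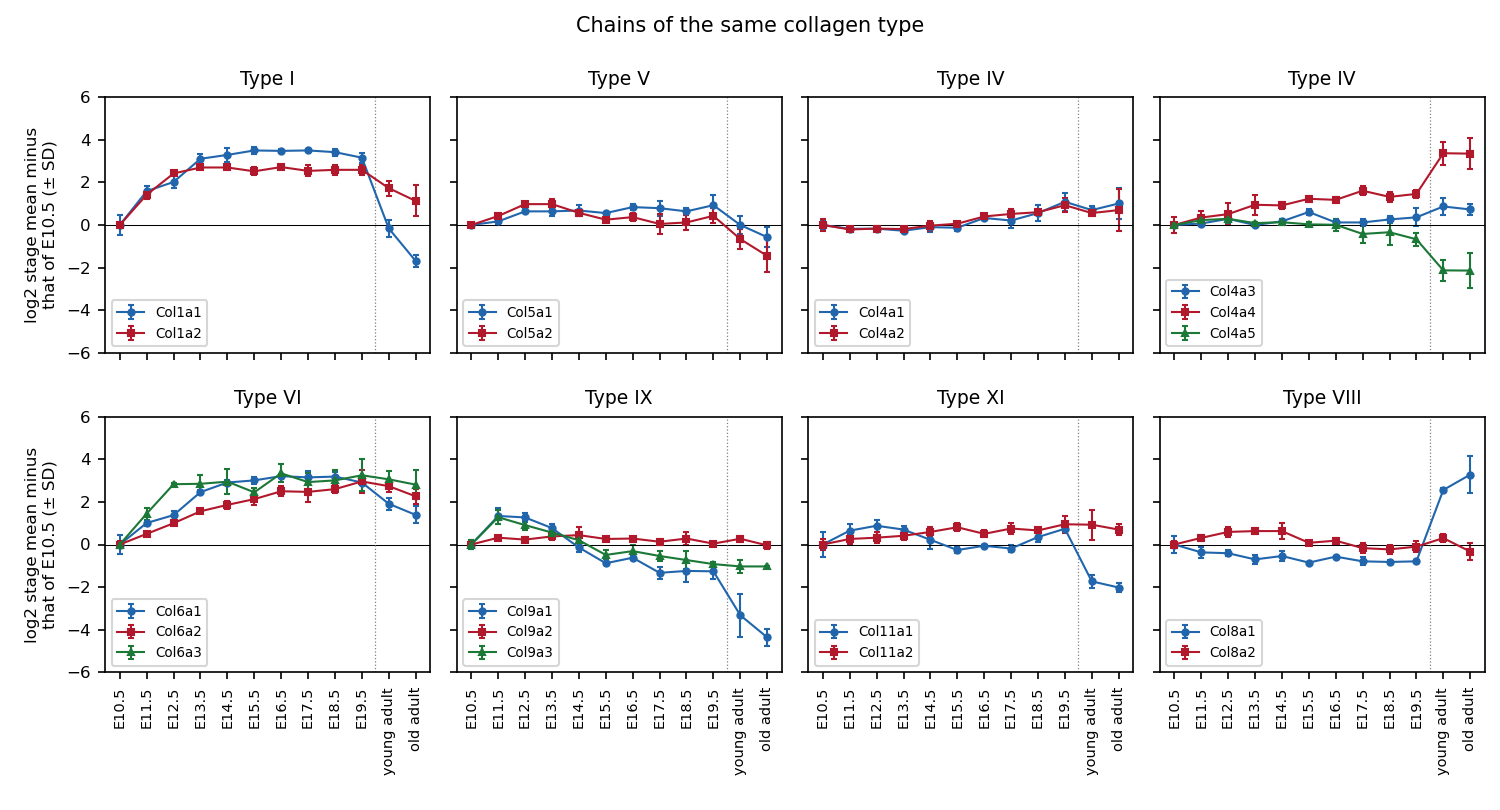
Stage mean minus the E10.5 mean, with the SD of 3 arrays, for the chains of types I, V, IV (in 2 panels), VI, IX, XI and VIII. Col4a1 and Col4a2 overlie each other, Col1a1 drops further than Col1a2 in adult hearts on the probe sets plotted (second probe sets give the opposite order, -1.16 and -1.94 from E19.5 to the young adult), Col4a4 and Col4a5 separate to 3.37 above and 2.13 below E10.5 in the young adult, and Col8a1 leaves Col8a2 in adult hearts.

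In the RefSeq annotation 7 pairs of collagen genes are direct neighbours. Col4a1 and Col4a2 (r = 0.95), Col3a1 and Col5a2 (0.86), Col4a3 and Col4a4 (0.83), Col6a1 and Col6a2 (0.8) and Col4a5 and Col4a6 (0.61) had positive r over the 12 means. Col9a1 with Col19a1 (-0.77) and Col6a4 with Col6a5 (-0.15) did not. In 4 of the 7 pairs a gene is under the expression limit (Col4a3, Col4a6, Col19a1, Col6a4 and Col6a5). The annotated spans of Col4a1 and Col4a2, and of Col4a3 and Col4a4, overlap.

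From the young to the old adult heart, 5 of 42 collagen genes fell at an adjusted p under 0.05, where 3.13% of all genes did, and 0 rose, where 4.46% did. With each array centred on the median of probe sets with a mean above 5, 10 collagen genes were lower and 0 higher. The count over all genes then turned from 923 higher and 648 lower to 486 and 937. Quantile normalization gave 11 lower and 1 higher, with 775 and 848 over all genes. The 5 were Col1a1, Col3a1, Col9a1, Col8a2 and Col16a1, and none reached the study limits, which 0.00483% of all genes did in each direction. Col1a1 read 6.36, 6.63 and 7.1 in the young and 5.38, 4.87 and 5.26 in the old adult, and fell by 1.53 (SE 0.206, adjusted p = 3.7e-05, 2.88-fold). Col3a1 read 10.92, 11.09 and 11.65 and then 10.45, 9.19 and 10.61, and fell by 1.13 (SE 0.235, adjusted p = 0.0033). For neither gene did the arrays overlap. The mixed old array was the lowest for both, and without it the fall of Col3a1 was 0.69 (adjusted p = 0.037). In a model of the 6 adult arrays alone, neither gene passed (adjusted p = 0.079 and 0.21).

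Col16a1 read 6.9, 6.46 and 6.47 in the young and 6.26, 6.27 and 6.03 in the old adult, a fall of 0.43 (adjusted p = 0.045). In limma its call was lost with the sex label as a block (adjusted p = 0.059) and in a trended robust fit (0.069). It was also lost without the male young array (0.25) or any 1 of the old arrays (0.06 to 0.14). Col9a1 read 4.69, 3.2 and 5.14 and then 3.38, 2.88 and 3.64, a fall of 1.04 (adjusted p = 0.034) with overlapping arrays, and a second probe set differed by 0.15 (adjusted p = 0.71). Col8a2 read 4.38, 4.0 and 4.11 and then 3.64, 3.11 and 3.85, a fall of 0.63 (adjusted p = 0.035) below the expression limit. Col9a1 and Col8a2 also lost their calls without the male young, the male old or the mixed old array. The count of genes that fell was 2 without the male young array, and also 2 without the mixed old array. Without the female old array 3 collagen genes rose, and without the mixed old array 1 did.

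The 11 fibrillar genes all had negative differences, from -1.53 to -0.03 with a median of -0.29, against 0 over all genes. Of the other scalings tried, quantile normalization turned 1 of them, Col2a1, positive (0.06). Col2a1, Col5a3, Col11a1, Col11a2 and Col24a1 read under 5 on every adult array, where changes are measured less well. Among the others, the mixed old array was the lowest old one for Col1a1, Col1a2, Col3a1, Col5a1 and Col5a2, but not for Col27a1. Col5a1 read 8.62 on the male, 7.71 on the mixed and 8.36 on the female old array. Col1a2 read 10.34, 9.08 and 10.33 in the old adult (difference -0.61, adjusted p = 0.083), and Col5a2 8.34, 6.93 and 8.14 (difference -0.79, adjusted p = 0.058). Over the whole family 8 of 42 differences (19%) were above 0, against 49.9% of all genes and 64.2% of genes with a stage mean above 5. Col8a1 read 8.96, 7.35 and 7.58 in the old adult (difference 0.73, adjusted p = 0.059), with the male array well above the others. Second probe sets of Col1a1, Col1a2 and Col3a1, each with a stage mean above 5, fell by 0.70 (adjusted p = 0.043), 1.2 (adjusted p = 0.016) and 1.18 (adjusted p = 0.04). Old hearts had summed fibroblast markers of 6900 to 13400, a range that included most of the young one. Endothelial markers summed to 2060 to 2220 in young and 2620 to 4150 in old hearts, and macrophage markers to 1560 to 1780 and 1450 to 2560. Their part was not tested.

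No collagen gene passed the test between male and female hearts. Over 9 pairs from E13.5 on, 0 of 42 genes passed an adjusted p under 0.05 in limma with stage as a block, where 0.0435% of all genes did (9 genes). At an unadjusted p under 0.05 there were 4, and the lowest adjusted p was 0.417. The count was also 0 when any 1 pair was left out, a check chosen after seeing the data. A p over the limit does not show that the sexes were alike.

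Collagen chains are hydroxylated and folded in the endoplasmic reticulum, trimmed outside the cell, crosslinked and bound by receptors. Of 45 genes of these steps, 2 were called higher at E19.5 than at E10.5 and 0 lower, where 1% and 1.52% of all genes were. Adamts2, the protease that removes the N-terminal propeptide of fibrillar procollagens, read 4.51, 4.42 and 4.81 and then 7.57, 7.53 and 7.47, a rise of 2.94 (SE 0.195, adjusted p = 2.7e-13, 7.69-fold). Lox, the lysyl oxidase that crosslinks fibrils, read 4.11, 4.68 and 4.97 and then 8.01, 7.89 and 6.96, a rise of 3.03 (SE 0.286, adjusted p = 6.7e-10, 8.18-fold). Neither was called when the probe sets of a gene were averaged.

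At an adjusted p under 0.05, 15 of the 45 (33.3%) were higher and 12 (26.7%) lower in that comparison, against 26.2% and 23.6% of all genes, so both shares were near the background. By step, 4 of 7 propeptide removal genes were higher and 0 lower, 3 of 5 crosslinking genes were higher and 1 lower, and 6 of 9 receptor genes were higher and 0 lower. In contrast, of 15 chain modification genes 1 was higher and 8 lower, and of 9 folding and export genes 1 was higher and 3 lower. Some genes counted as higher were low: the receptor gene Gp6 read 2.53 and 2.9 at E10.5 and E19.5, with overlapping arrays. Itga10 read 4.24 and 4.95, and the crosslinking gene Loxl4 3.93 and 4.61.

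From E19.5 to the young adult, Lox read 4.91, 4.78 and 5.76 and fell by 2.47 (SE 0.286, adjusted p = 4.2e-08), back to near its E10.5 level. Fkbp10, a folding enzyme of procollagen, read 7.95, 7.68 and 7.84 at E19.5 and 5.66, 5.1 and 6.04 in the young adult, and fell by 2.22 (SE 0.186, adjusted p = 6.2e-11). Pcolce2, an enhancer of C-terminal propeptide removal, read 3.74, 3.99 and 3.86 and then 7.18, 7.8 and 8.23, a rise of 3.87 (SE 0.229, adjusted p = 2.3e-14, 14.6-fold). These are 1 higher and 2 lower genes of the 45, where 0.787% and 1.02% of all genes were called, and the lower ones were not called when probe sets were averaged. At an adjusted p under 0.05, 6 (13.3%) were higher and 12 (26.7%) lower, against 14.7% and 17% of all genes. Adamts3, which trims type II procollagen, rose by 1.66 to E19.5 (adjusted p = 3e-09) and then fell by 1.81 (adjusted p = 5.5e-10). The collagen chaperone Serpinh1 fell by 0.97 from E19.5 to the young adult (adjusted p = 0.00016) and the receptor Ddr1 by 1.57 (adjusted p = 6.4e-08). P4hb, a subunit of prolyl hydroxylase, fell by 1.54 from E10.5 to E19.5 (adjusted p = 0.00035). These 4 were chosen after their values were seen.

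**Figure D5:**
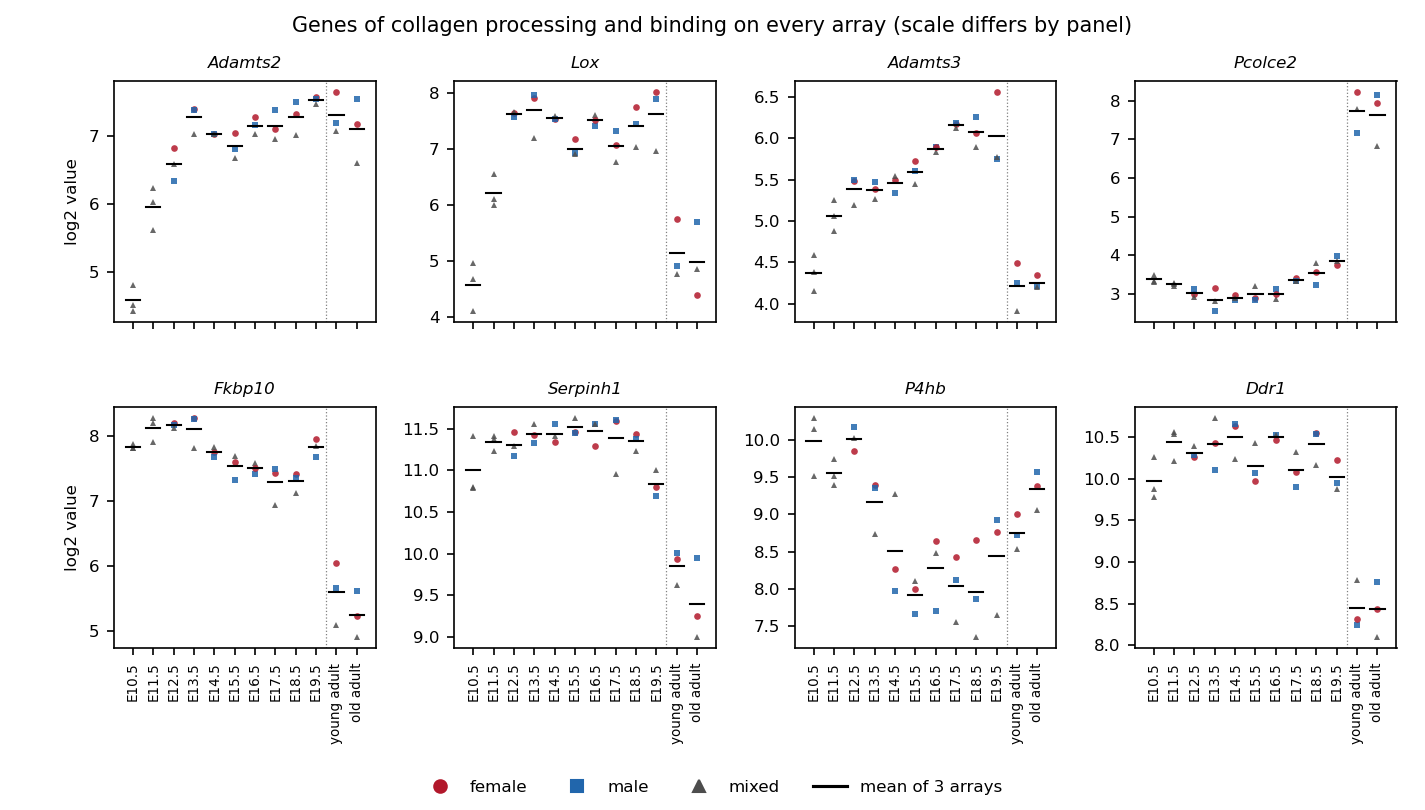
Log2 value on every array of 8 genes that process or bind collagen, by stage, with circles for female, squares for male and triangles for mixed arrays and a bar at the mean of 3 (scales differ between panels). Lox lies between 4.11 and 4.97 at E10.5, between 6.96 and 8.01 at E19.5 and between 4.78 and 5.76 in the young adult, and Pcolce2 is above 7 on every young adult array.

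The choice of probe set mattered for some members. For Col12a1, a FACIT gene of tension-bearing tissue, the second probe set fell by 1.46 from E10.5 to E19.5 where the one used rose by 0.78, so no direction is given for the gene. A second Col14a1 probe set rose by 3.82 and was called, against 1.60. A second Col5a1 probe set fell by 2.44 from E19.5 to the young adult and was called, against 0.93, while another below the expression limit differed by 0.11, and a second Col5a2 probe set fell by 1.95 against 1.09. For Col4a5 the second probe set fell by 1.64 from E10.5 to E19.5 and then differed by 0.06, so both read a fall by adulthood but place it at different times. Second probe sets of Col1a1 and Col1a2 kept the direction of the ones used, with 1.76 and 2.98 for the embryonic rise and -1.16 and -1.94 for the fall to the young adult. For the latter step those of Col4a4 (1.71) and Col18a1 (-1.48) were close to the ones used.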

How the data were processed

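RNA of mouse hearts was hybridized to 1-colour Affymetrix mouse genome arrays. The deposited log2 intensities come from robust multi-array average (RMA), by which the authors corrected background, equalized array distributions by quantiles and summarized each probe set. The submitters' processing notes name Affymetrix Expression Console and Partek 6.6. Arrays carry no read depth. Gene IDs and symbols come from the platform annotation, with 47 symbols restored from gene IDs. Of 45101 probe sets, 6937 have no gene ID. Promoter sequences and gene order are from RefSeq, GRCm38.p6.

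Differences were computed in R 4.3.3 with limma 3.58.1: 12 stage means fitted on all 36 arrays and all probe sets (residual degrees of freedom 24, prior degrees of freedom 6.96), with Benjamini-Hochberg adjustment within each comparison. Main comparisons used an adjusted p under 1e-05, a log2 difference above 2 in size and some stage mean over 5. Daily steps, age and sex used an adjusted p under 0.05. Male and female arrays were compared with stage as a block, leaving out E12.5 as in the methods. On simulated data with the E19.5 minus E10.5 design and 45101 probe sets, 97 of 100 probe sets changed by 3 on the log2 scale and 100 of 100 changed by 4 were called, with 0 false calls. The changed probe sets all had means above the expression limit, and the noise was independent between arrays. No shifts in scaling or RNA quality and no smaller changes were simulated. The simulation therefore checks the code and cannot show how often low or smaller changes are missed or falsely called here.

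All collagen genes may be named. Values on single arrays are given for genes called in the main comparisons or by age and for fibrillar, type IV and type VI genes above 5. A few others are added for comparison. Members, gene lists and limits were chosen with earlier results of these data known. Alternatives covered the call limits, the filter, the choice of probe set, scaling, RNA quality terms, blocks, smaller fits and leaving out each array.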

Additional observations from a re-analysis of the deposited data

How the results depend on the processing

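For the collagen genes named in the main comparisons, 802 alternative values were computed for 46 pairs of gene and comparison. Of these 723 kept their direction and their side of the limit, 54 lost the call, 19 gained one and 6 reversed. Sign changes outside the 46 pairs are not counted here. Examples with scaling are Col1a1 in young adult minus E10.5, Col5a3 and Col11a2 in young adult minus E19.5, and Col2a1 by age. With the hybridization control level as a term, the young adult minus E19.5 differences of Col4a1, Col6a2 and Col6a3 turned to 0.05, 0.26 and 0.69, and the E19.5 minus E10.5 difference of Col4a5 to 0.23. With the 3-prime to 5-prime term Col6a2 turned to 0.11, and Col6a3 ran from -0.63 to 0.07 when E19.5 replicate arrays were left out, with the turn at the male array, both for young adult minus E19.5. None of these differences had passed the test, and the cause was not tested.

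Looser limits give more calls by construction. At an adjusted p under 0.05 alone, collagen calls were 24 higher and 9 lower for E19.5 minus E10.5, 7 and 13 for young adult minus E19.5, and 19 and 11 for young adult minus E10.5. There were 37 at any stage against young adult and 35 against E19.5, without a share of all genes at this any-stage limit. In young adult minus E10.5 alone, 38.6% of all genes were higher and 28.5% lower, so these 2 counts are not read as particular to collagens. The processing genes had 15 and 12, then 6 and 12. With a log2 limit of 1, counts were 2 higher and 5 lower for young adult minus E19.5, 8 higher for young adult minus E10.5, 3 lower for old minus young adult, and 5 higher and 3 lower, then 2 higher and 4 lower, among processing genes. The study limits left 0 calls by age, in daily steps and in the E11.5 step, and the log2 limit of 1 left 0 lower genes in daily steps. For the log2 limit of 1, and for fits with other terms, filters or arrays, the share of all genes was not computed.

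Centring each array on the median of probe sets with a mean above 5 shifts all genes of a comparison alike. The shift was 0.34 for E19.5 minus E10.5 and 0.18 for young adult minus E19.5. It was 0.53 for young adult minus E10.5 and -0.14 for old minus young adult. Centring gave 1 lower gene for the first, 2 higher for the second, 8 higher for the third, 10 lower by age and 0 lower in daily steps. Quantile normalization gave 2 higher genes for young adult minus E19.5 and 1 higher and 11 lower by age. The filter before the model gave 1 higher gene by age and 2 lower in daily steps, and a trended robust fit 0 lower in daily steps. The mean of all probe sets of a gene left 0 processing genes higher at E19.5 than at E10.5 and 0 lower in the young adult. Fits on the 6 arrays compared, which have fewer degrees of freedom, gave 1 higher collagen gene for E19.5 minus E10.5, 3 lower for young adult minus E10.5, 0 by age, 3 at any stage against E19.5, 17 higher in daily steps, and 1 higher and 0 lower among processing genes.

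The hybridization term gave 2 lower genes for young adult minus E10.5, 8 lower by age and 0 lower processing genes. The 3-prime to 5-prime term gave 1 higher and 8 lower genes by age, 4 higher in daily steps, all of the 4 in the E11.5 step, and 1 lower processing gene. The causes were not tested.

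With each array left out in turn there were 5 to 6 higher and 2 to 2 lower genes for E19.5 minus E10.5, 1 to 2 and 2 to 3 for young adult minus E19.5, 4 to 6 and 4 to 6 for young adult minus E10.5, and 0 to 3 and 2 to 7 by age. Any-stage counts ran from 12 to 14 and 9 to 10, daily steps from 7 to 13 higher and 0 to 2 lower, and the E11.5 step from 4 to 9. Processing genes ran from 2 to 2 and 0 to 1, then 1 to 1 and 1 to 2. The male minus female count was 0 throughout.

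The replicate numbers of E10.5 and E11.5 do not pair the arrays (correlations of deviations 0.19, -0.247 and 0.14), and with a replicate block 3 collagen genes were higher in the E11.5 step. With the sex label as a block from E12.5 on, Col16a1 and Col8a2 lost their call by age (adjusted p = 0.059 for each), and Col1a1 (6.2e-05) and Col3a1 (0.0038) kept it in limma. With 3 arrays a stage, differences that are small beside their SE can go undetected, and probe sets near background measure changes less well.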
